A study of Bos taurus with 15 samples.

Results

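Severe and moderate negative energy balance (SNEB and MNEB) were compared at 1 week postpartum (wkpp) in subcutaneous adipose tissue taken from the dewlap of primiparous Prim Holstein cows. The comparison is the one that sets the low energy (LE) diet against the high energy (HE) diet at 1 wkpp, and it holds 6 of the 15 RNA-seq libraries of the series and all 13896 genes of the tables. SNEB stands for 3 libraries of cows on the LE diet and MNEB for 3 libraries of cows on the HE diet, and in both groups the diet had begun in the last month of gestation and was still given at the biopsy. The other 9 libraries, 3 from -4 wkpp and 3 of each diet at 16 wkpp, are used only where stated. The sequenced cows were those with the more extreme energy balance at 1 wkpp and were fasted before the biopsy, so diet, energy balance and the choice of the cows cannot be told apart. Titles of the 3 SNEB libraries also carry the mark m2 and those of the 3 MNEB libraries the mark m1, which the sources used here do not explain and which cannot be told apart from the diet.

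After calving, the energy drawn into milk exceeds the energy eaten, and white adipose tissue releases fatty acids from its triacylglycerol stores by lipolysis while fatty acid synthesis is turned down. The adipocytes lie in a stroma of fibroblasts and progenitor cells, which make collagens, proteoglycans and complement proteins, and which share the tissue with blood and lymphatic vessels, mast cells and macrophages. A biopsy of the whole tissue is read as a mixture, in which fewer cells of a type and less RNA per cell cannot be told apart.

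The libraries differed in reads on genes and in composition along with the diet. Exonic reads on genes numbered 13691482, 14036930 and 11129042 in SNEB libraries a, b and c, and 7171953, 2703894 and 2207801 in MNEB libraries a, b and c. The synthetic spike-in RNAs took between 0.339% and 0.884% of the gene and spike-in reads in SNEB, and 2.21%, 10.9% and 17.4% in MNEB a, b and c. RN7SL1, the RNA of the signal recognition particle, took between 0.378% and 0.599% of the exonic reads in SNEB and 1.86%, 3.26% and 7.87% in MNEB a, b and c. The 3 MNEB libraries at 16 wkpp lay on the same side, with 2980758 to 7658010 exonic reads and 2.41% to 6.98% of spike-in reads, whereas SNEB at 16 wkpp had 12639108 to 14931887 exonic reads and at most 0.396% of spike-in reads. The study lists similar totals of sequenced reads for both groups and a lower aligned share for the MNEB libraries. How much of the differences between SNEB and MNEB goes with the aligned share, the reads on genes or the spike-in share was not tested.

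MNEB library a stood apart from the other MNEB libraries. Over the 11935 genes with a mean whole gene count of at least 10, its correlation with MNEB b and c was 0.818 and 0.811, whereas with the SNEB libraries it was between 0.952 and 0.971 (Pearson r across genes, on log2 of the normalized count + 1, as a description). MNEB b and c correlated with each other at 0.964, and with the SNEB libraries at 0.769 to 0.8. In exonic reads the same library lay between both sets, with 0.897 and 0.904 towards MNEB b and c and 0.898 to 0.943 towards SNEB. Counts of calls are therefore given with and without MNEB a, and a list's median that moves by over 1.5 times is followed by its value without MNEB a and with MNEB a as the only MNEB library.

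**Figure D1:**
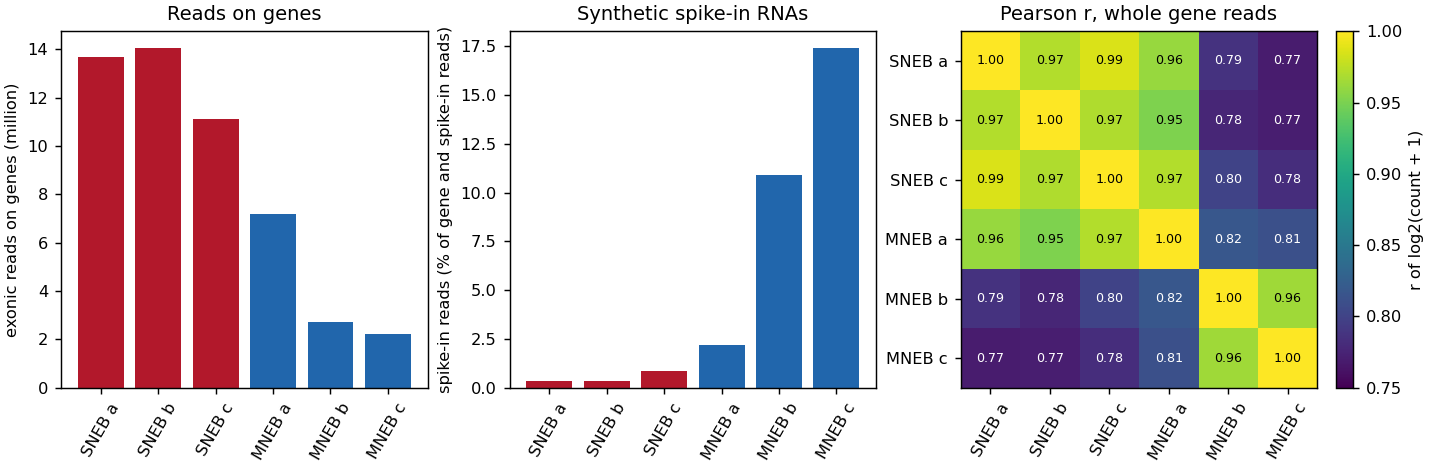
Exonic reads on genes (number per library), spike-in reads (percent of gene and spike-in reads) and Pearson correlation of whole gene reads for the 6 libraries at 1 wkpp, with SNEB in red and MNEB in blue. The MNEB libraries have fewer reads on genes and more on spike-ins than all SNEB libraries, and MNEB a correlates with SNEB at 0.95 to 0.97 but with MNEB b and c at 0.82 and 0.81.

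The tissue label was checked against adipocyte markers. PLIN1, which coats the lipid droplet, was at 19444, 17854 and 22859 normalized exonic reads in SNEB and at 9456, 7293 and 5653 in MNEB. FABP4, the fatty acid carrier of adipocytes, was lowest in MNEB c, at 4525. The milk protein genes CSN1S1, CSN3 and LALBA were at 0 in all SNEB libraries and in MNEB a, and at most at 11.9, for LALBA, in MNEB b and c.

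With limma voom, no gene passed the threshold of the design. The authors applied such a threshold with a count model and do report genes past it in this comparison. The lack of passing genes therefore holds for the limma fits only, and why the results differ was not tested. The threshold was an adjusted p below 0.01 in both the exonic and the whole gene fit, with the same sign. It was met by 0 of 10368 genes tested in both (0%, limma voom with Benjamini-Hochberg adjustment). Of these genes, 1906 had an unadjusted p below 0.05 in both fits with the same sign. The exonic fit alone had 163 of 10479 genes past 0.01 (1.56%), with 60 higher in SNEB (0.573%) and 103 lower (0.983%), while the whole gene fit had none of 11935 (0%) and 2307 at an unadjusted p below 0.05. At an adjusted p below 0.05 in both fits there were 55 genes, 30 higher (0.289%) and 25 lower (0.241%) in SNEB (0.53% in all). The count moved with the libraries used and with how the spread was estimated. Without MNEB a, 462 genes passed 0.01 in both fits, with 148 higher (1.42%) and 314 lower (3.01%), or 4.42% in all. With weights for the quality of each library, which gave MNEB a 0.122 in the whole gene fit against 0.577 to 2.65 for the others, 799 genes passed (7.71%), with 322 higher (3.11%) and 477 lower (4.6%). With all 15 libraries sharing one estimate of the spread, 312 genes passed (2.97%), with 97 higher (0.923%) and 215 lower (2.05%). Leaving out any 1 of the other 5 libraries gave 0 genes in both fits and at most 2 in the exonic fit. With TMM factors the exonic fit had 107 genes, 52 higher and 55 lower. Scaled to the spike-in RNAs, it had 9366 genes higher and 0 lower, and the median log2 fold change of all genes was 4.04, so every call of a lower gene is relative to the reads on genes.

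Genes are called higher or lower below by the exonic fit alone at an adjusted p below 0.01, which is a looser rule than that of the design. Each of the 163 genes had the same sign in the whole gene fit, as had 84.3% of all 10368 genes tested in both fits. Whole gene reads include the exonic reads, so the fits are not independent. In the whole gene fit, 23 of the 60 higher and 25 of the 103 lower genes had an adjusted p below 0.05. Without MNEB a, 50 of the 60 and 100 of the 103 still passed 0.01 in the exonic fit. In all 163 the 6 exonic values did not overlap between the groups, which was so for 39.8% of all genes tested, with SNEB above in 19.9% and below in 19.9%. The median log2 fold change (SNEB over MNEB) was 2.17 for the higher genes and -1.66 for the lower genes, and 0.073 over all genes tested. Reads on introns alone were taken as whole gene minus exonic reads, with their own scaling. They gave a median of 1.12 for the 59 higher genes and -0.32 for the 98 lower genes that could be fitted. The sign was kept in 58 and 80 of these. Whether these shares differ was not tested.

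MMRN1 and LYVE1 had the largest log2 fold changes among the genes called higher. MMRN1, a glycoprotein of lymphatic endothelium and platelets, had 1927, 1363 and 993 normalized exonic reads in SNEB and 74.2, 94.8 and 199 in MNEB, a log2 fold change of 3.81 ± 0.40 (SE, adjusted p = 0.00517). LYVE1, the hyaluronan receptor of lymphatic endothelium and of some macrophages, had 1595, 1590 and 829 in SNEB and 95.5, 90.1 and 164 in MNEB (3.59 ± 0.39, adjusted p = 0.00560). MNEB a lay beside the other MNEB libraries for both genes, which were named by a rule that asked for no overlap of the groups. Of the 14 tested markers of lymphatic endothelium these 2 were called higher and none lower (0.573% and 0.983% of all genes). PROX1, the transcription factor that defines the lineage, had 179.8, 337 and 122 in SNEB and 119.7, 161 and 303 in MNEB, with overlapping groups. The summed count of the list was 6328 to 9750 in SNEB and 4639 to 5493 in MNEB. No median is given for this list, since its member STAB2 passed the filter on the mean only through MNEB b and c. CCL21, the lymphatic chemokine, ranged from 40.4 to 585 in SNEB and from 4.64 to 37.9 in MNEB (3.85 ± 2.05, adjusted p = 0.228).

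Complement and acute phase genes gave the most called members of any list, 5 higher and 0 lower among 25 tested, where 0.573% of all genes tested were called higher and 0.983% lower. The median log2 fold change of the list was 2.04, against 0.073 over all genes. A2M, the general protease inhibitor alpha-2-macroglobulin, had 33214, 35215 and 22274 in SNEB and 4165, 2143 and 3501 in MNEB (3.24 ± 0.31, adjusted p = 0.00517). C1S, a protease of the first complement component, had 8635, 10428 and 5960 in SNEB and 1531, 638 and 888 in MNEB (3.07 ± 0.35, adjusted p = 0.00579). C3, the central complement protein, had 5724, 3389 and 2502 in SNEB and 508, 517 and 303 in MNEB (3.03 ± 0.34, adjusted p = 0.00579). No overlap of the groups was part of the rule by which these genes were named. C1R, the partner protease of C1S, and SERPING1, which inhibits both, were also higher, by 2.33 and 2.22 on the log2 scale. The summed count of the list was 57766 to 115013 in SNEB and 13649 to 18175 in MNEB, and its median stayed at 2.22 without MNEB a and 1.72 with MNEB a as the only MNEB library. Not all members followed, since C4A was at 1708, 2558 and 976 in SNEB and at 973, 680.4 and 1223 in MNEB.

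**Figure D2:**
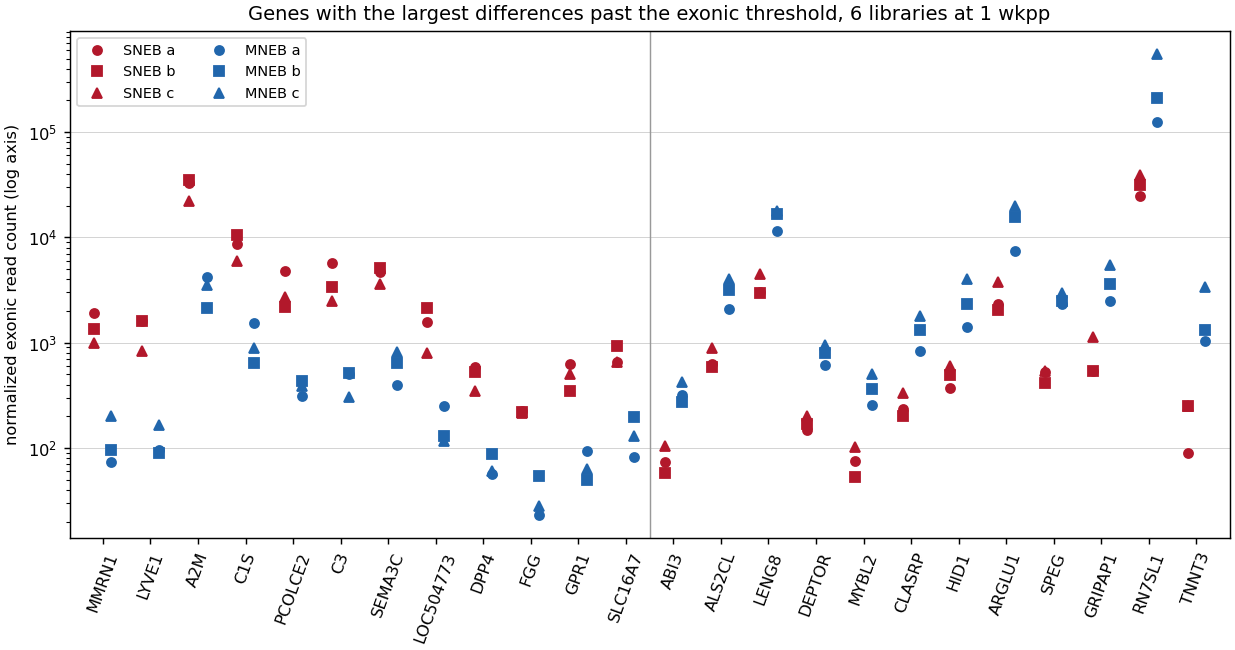
Normalized exonic read counts (log axis) in the 6 libraries at 1 wkpp for 12 increased and 12 decreased genes past the exonic threshold, those of largest change with a mean count of at least 100 and no overlap of the groups, SNEB in red and MNEB in blue, one symbol per library. The values run from MMRN1 at 3.81 to TNNT3 at -3.23 on the log2 scale.

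Genes of fibroblasts and progenitor cells were called higher in 3 of 15 tested and lower in 0 (0.573% and 0.983% of all genes), with a median log2 fold change of 1.70. PDGFRA, the growth factor receptor that marks adipose progenitors, had 6217, 6711 and 4802 in SNEB and 1750, 1472 and 1299 in MNEB (1.96 ± 0.22, adjusted p = 0.00579). DPP4, a surface peptidase of early progenitors, had 589, 528 and 351 in SNEB and 56.6, 87.7 and 60 in MNEB (2.89 ± 0.38, adjusted p = 0.00722, and 0.0103 without MNEB a). FAP, a related peptidase of activated fibroblasts, was higher by 1.70 ± 0.22 on the log2 scale. MNEB a lay below every SNEB library for PDGFRA and DPP4, as MNEB b and c did, though DPP4 was named by a rule that asked for this. The list's median was 1.64 without MNEB a and 1.73 with MNEB a alone, so it moved little with that library. DPT, dermatopontin of the fibroblast matrix, overlapped between the groups, at 1017, 1373 and 681 in SNEB and 251, 1081 and 2449 in MNEB.

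Among the 31 tested matrix glycoproteins and proteoglycans, 4 were called higher and 0 lower (0.573% and 0.983% of all genes), and the median log2 fold change was 1.41. DCN, the small proteoglycan decorin that binds collagen fibrils, had 31190, 36016 and 22995 in SNEB and 3499, 7774 and 7391 in MNEB (2.32 ± 0.34, adjusted p = 0.00889). FBN1, the main protein of microfibrils and the precursor of the hormone asprosin, had 32265, 60041 and 28524 in SNEB and 11104, 10534 and 10419 in MNEB (1.83 ± 0.28, adjusted p = 0.00995). The microfibril protein MFAP5 and the proteoglycan ASPN were the other two, at 2.39 and 2.16, and MFAP5 did not pass without MNEB a (adjusted p = 0.0145). LOX, an enzyme that crosslinks collagen and elastin, had 2570, 1610 and 1991 in SNEB and 416, 349 and 338 in MNEB (2.43 ± 0.24, adjusted p = 0.00517), and was the 1 called member of 29 tested matrix proteases and inhibitors, whose median was 0.80 (1.25 without MNEB a, 0.18 with it alone). PCOLCE2, an enhancer of procollagen cleavage that is in none of the lists, had 4783, 2179 and 2725 in SNEB against 309.8, 434 and 389 in MNEB (3.06 ± 0.32, adjusted p = 0.00517).

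Of 15 tested collagen chains, 0 were called higher and 1 lower (0.573% and 0.983% of all genes), and the median log2 fold change was -0.63 (-1.22 without MNEB a, -0.25 with it alone). COL1A1, a chain of the main fibrillar collagen, had 16449, 79423 and 17619 in SNEB and 24797, 42468 and 11136 in MNEB, with overlapping groups and SNEB b far above the rest. COL18A1, a collagen of vascular basement membranes, was the called member, with 4746, 3674 and 4511 in SNEB and 12168, 13727 and 19637 in MNEB (-1.80 ± 0.24, adjusted p = 0.00746). COL3A1 was not analysed here, because its reads could not be recovered.

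Of 11 tested mast cell genes, only KIT was called higher (0.573% of all genes). No count of signs and no median is given for this list, since TPSB2, described below, passed the filter on the mean only through SNEB. KIT, the receptor that mast cells need to survive, had 1023, 1756 and 829 in SNEB and 228, 194 and 351 in MNEB (2.23 ± 0.34, adjusted p = 0.00995), a call that was lost without MNEB a (adjusted p = 0.0153). CPA3, the mast cell carboxypeptidase, had 354, 887 and 182 in SNEB and 26.9, 19 and 22.1 in MNEB, and did not pass (3.97 ± 1.10, adjusted p = 0.0406). The groups did not overlap for either gene. TPSB2, a tryptase, was at 20.6, 141 and 10.5 in SNEB and 1.86, 9.48 and 0 in MNEB, and HDC, which makes histamine, overlapped between the groups.

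Adipocyte genes differed in where MNEB a lay. CIDEC, which fuses lipid droplets, had 4572, 5599 and 3308 in SNEB and 1039, 1441 and 1258 in MNEB and was the only called member of 16 tested genes of lipolysis and the droplet coat, where 0.573% of all genes were called higher (1.83 ± 0.25, adjusted p = 0.00770). The median of that list was 0.26 (0.71 without MNEB a, -0.25 with it alone). PLIN1, given above, lay just outside the threshold (1.46 ± 0.25, adjusted p = 0.0103). For both genes MNEB a was low like MNEB b and c. For other adipocyte genes it was not: FABP4 had 32427, 42284 and 43990 in SNEB, 31351 in MNEB a, and 6762 and 4525 in MNEB b and c (2.04 ± 0.63, adjusted p = 0.0563). CD36, the fatty acid translocase, had 18069, 11090 and 31098 in SNEB, 29962 in MNEB a, and 6882 and 3264 in MNEB b and c. The 10 tested genes of fatty acid uptake had a median log2 fold change of 0.34, which was 0.79 without MNEB a and -0.56 with MNEB a alone, so its sign rested on which MNEB libraries were used.

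The lipases did not pass the test. LIPE, the hormone-sensitive lipase, had 6089, 5040 and 7267 in SNEB and 7413, 6354 and 4231 in MNEB (0.064 ± 0.26, adjusted p = 0.887). PNPLA2, the adipose triglyceride lipase, had 2148, 1445 and 2046 in SNEB and 2619, 2558 and 2282 in MNEB (-0.42 ± 0.22, adjusted p = 0.213). With 3 libraries a group this does not show that they were equal. The lists of fatty acid oxidation, triacylglycerol assembly and fatty acid synthesis had no called member. The median was 0.51 over 20 tested genes of fatty acid oxidation (0.69 without MNEB a, -0.05 with it alone). It was 0.34 over 14 genes of triacylglycerol assembly (0.29 and 0.14) and 0.46 over 18 genes of fatty acid synthesis.

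None of the enzymes of fatty acid synthesis passed the test. SCD, the stearoyl-CoA desaturase, had 573, 15496 and 2453 in SNEB and 741, 953 and 607 in MNEB, where SNEB b and c alone lay above MNEB (1.88 ± 0.94, adjusted p = 0.203). FASN, the fatty acid synthase, had 976, 2898 and 999.8 in SNEB and 1502, 3141 and 3637 in MNEB (-0.88 ± 0.46, adjusted p = 0.226), and ACACA, which makes malonyl-CoA, overlapped between the groups. ELOVL6, which lengthens the product of FASN, had 411, 773 and 468 in SNEB and 127, 152 and 183 in MNEB, without overlap and just outside the threshold (1.86 ± 0.33, adjusted p = 0.0110).

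LEP, GPR1 and GHR were called higher. LEP, which encodes leptin, had 375, 561 and 377 in SNEB and 51.0, 104 and 152 in MNEB (2.47 ± 0.40, adjusted p = 0.00995) and was the only called gene among 11 tested of adipocyte identity and adipokines, whose median was 0.86 (0.573% of all genes were called higher). Without MNEB a the value of LEP was 1.78 and the call was lost (adjusted p = 0.0188), and with MNEB a alone it was 3.05. RBP4, the retinol carrier, did not pass, with 2236, 5544 and 2205 in SNEB and 1238, 877 and 537 in MNEB (1.81 ± 0.41, adjusted p = 0.0219). GPR1, a receptor of the adipokine chemerin, had 625, 347 and 509 in SNEB and 92.8, 49.8 and 63.2 in MNEB (2.69 ± 0.40, adjusted p = 0.00909). No SNEB value lay within the MNEB range for these genes. GHR, the growth hormone receptor, had 2833, 3324 and 2629 in SNEB and 868, 782 and 429.8 in MNEB (2.09 ± 0.28, adjusted p = 0.00746), and was the single called gene of 19 in the list of insulin signalling and glucose entry, where the median was 0.01 (0.29 without MNEB a, 0.15 with it alone) and 0.573% of all genes were called higher. PPARG, the transcription factor of adipocyte identity, had 348, 357 and 308 in SNEB and 385, 242 and 265 in MNEB.

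Housekeeping genes had positive values without a call, in all 33 tested genes of oxidative phosphorylation, with a median log2 fold change of 0.70, and in 32 of the 37 tested cytosolic ribosomal proteins, with a median of 0.36 (0.23 without MNEB a, 0.68 with it alone). Of 8 genes often used as references for RT-qPCR, which include the UXT and PPIA of the study, 8 were positive, with a median of 0.58 (0.67 and 0.35) and none called. PPIA was at 353, 421 and 389.7 in SNEB and 313, 194 and 155 in MNEB (0.74 ± 0.28, adjusted p = 0.102). UXT was at 115, 160.1 and 87.9 in SNEB and 83.5, 42.7 and 47.4 in MNEB (0.88 ± 0.42, adjusted p = 0.184). SDHA is a further reference gene of the RT-qPCR, outside the list and added after its values were seen. It was at 1395, 1669 and 1339 in SNEB and 1637, 1107 and 1220 in MNEB (0.16 ± 0.22, adjusted p = 0.648).

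RN7SL1 was among the genes called lower. It had 24742, 31237 and 39094 in SNEB and 123820, 209160 and 548767 in MNEB (-2.96 ± 0.48, adjusted p = 0.00995). LENG8, a protein of messenger RNA export, had 3060, 2948 and 4459 in SNEB and 11583, 16615 and 17715 in MNEB (-2.14 ± 0.26, adjusted p = 0.00722). ARGLU1, a regulator of splicing, had 2333, 2051 and 3740 in SNEB and 7458, 15503 and 19905 in MNEB (-2.36 ± 0.38, adjusted p = 0.00995). Its value was -1.52 with MNEB a alone. On intronic reads it was 0.79 ± 0.41 (adjusted p = 0.594), which is positive but did not pass. MNEB a was the lowest of the MNEB libraries in all 3 genes, and the same order is seen in CLASRP, another splicing factor, at 829, 1309 and 1792. In these genes the order is that of the spike-in share, whose part in these results was not tested. Other genes called lower had another order, such as ROBO4 at 6624, 6332 and 6349 and TRABD at 1313, 1197 and 1918 in MNEB a, b and c. How many lower genes had each order was not counted. Of the 103 lower genes, MNEB a lay nearer to the SNEB mean than the mean of MNEB b and c in 89, against 37 of the 60 higher genes.

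Contractile genes were also among those called lower. TNNT3, the troponin T of fast skeletal muscle, had 89.4, 252 and 252 in SNEB and 1041, 1316 and 3388 in MNEB (-3.23 ± 0.51, adjusted p = 0.00995). On whole gene reads its value was -1.87 (adjusted p = 0.119). On intronic reads it was 0.57 ± 0.83 (adjusted p = 0.771), which is positive but did not pass. ATP2A1, the calcium pump of fast muscle, had 6.69, 14.5 and 24 in SNEB and 111, 92.5 and 142 in MNEB (-3.10 ± 0.48, adjusted p = 0.00995). With TCAP at -1.56, 3 of 15 tested skeletal muscle genes were called lower, none higher (0.983% and 0.573% of all genes). No median is given for this list, since members such as MYH1 passed the filter on the mean only through MNEB b and c. The summed count of the list was 1930 to 2550 in SNEB and 4026 to 6450 in MNEB. MYH1, a fast myosin, was at 0 in all SNEB libraries and MNEB a and at 42.7 and 44.2 in MNEB b and c, and CKM, muscle creatine kinase, was at most at 3.16. The part of muscle in the biopsies in these differences was not tested. SPEG, a kinase of striated and smooth muscle, had 529, 411 and 543 in SNEB and 2311, 2475 and 2980 in MNEB (-2.39 ± 0.21, adjusted p = 0.00517).

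Of 19 tested smooth muscle and pericyte genes, 13 were negative, with a median of -0.41 (-0.20 without MNEB a, -0.63 with it alone) and summed counts of 30535 to 45203 in SNEB and 59292 to 63049 in MNEB. SMTN, smoothelin of contractile smooth muscle, was the 1 called member (0.983% of all genes were called lower), with 900.3, 589.9 and 956 in SNEB and 2476, 3253 and 4933 in MNEB (-2.11 ± 0.30, adjusted p = 0.00813), whereas ACTA2, smooth muscle actin, overlapped between the groups. ROBO4, a guidance receptor of blood vessel endothelium, had 1792, 1130 and 2082 in SNEB and 6624, 6332 and 6349 in MNEB (-1.99 ± 0.25, adjusted p = 0.00722). PECAM1, which marks endothelium as a whole, had 8395, 7854 and 8287 in SNEB and 9129, 7072 and 9430 in MNEB (-0.051 ± 0.21, adjusted p = 0.885). The 22 tested genes of blood vessel endothelium had a median of -0.01 (0.39 without MNEB a, -0.73 with it alone). PER2, a repressor of the circadian clock (-1.70 ± 0.26), and SREBF2, the master regulator of cholesterol synthesis (-1.43 ± 0.20), were the called members among 21 tested glucocorticoid and circadian genes and 24 tested genes of cholesterol synthesis and transport, with 0.983% of all genes called lower.

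None of the 21 tested macrophage genes was called, and their median log2 fold change of 1.04 was 1.75 without MNEB a and 0.08 with MNEB a alone. CD163, the scavenger receptor of tissue macrophages, had 4404, 4000 and 3631 in SNEB, 2413 in MNEB a, and 514 and 844 in MNEB b and c (1.94 ± 0.49, adjusted p = 0.0289). Interferon-stimulated genes were negative in 20 of 24 tested, with a median of -1.05 (-0.54 without MNEB a, -1.66 with it alone) and none called. MX1, an antiviral GTPase, had 264, 1096 and 421 in SNEB and 2818, 1110 and 569 in MNEB, and ISG15, a ubiquitin-like modifier, had 383 in MNEB a against at most 81.3 in the other 5 libraries. MNEB a was the highest library for both genes.

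**Figure D3:**
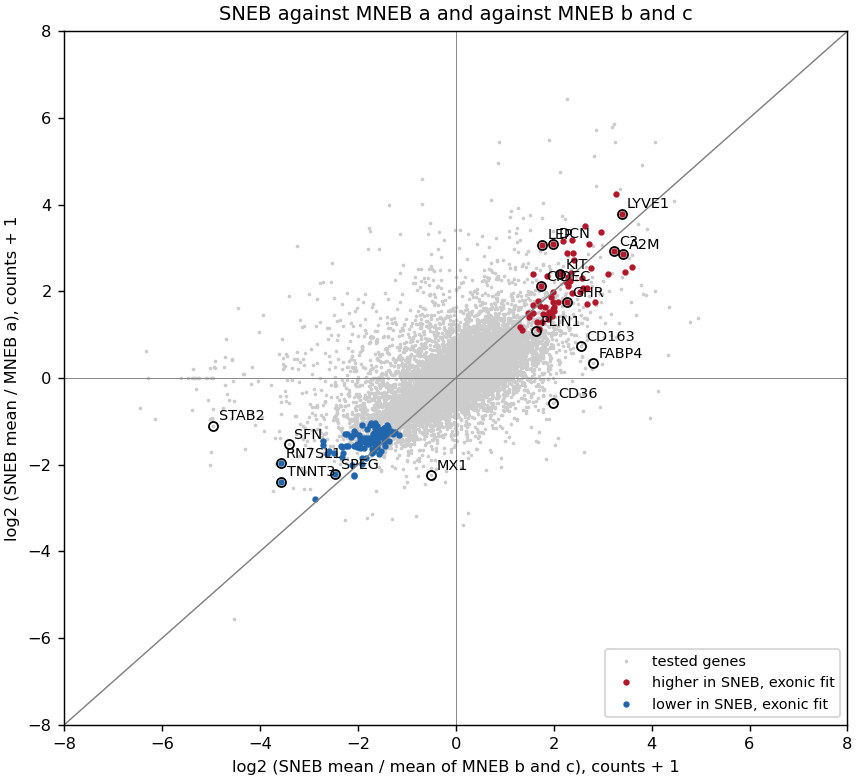
Log2 ratio of the SNEB mean to MNEB a (vertical axis) and to the mean of MNEB b and c (horizontal axis), each on normalized exonic counts + 1, for the genes tested, with genes past the exonic threshold in red (higher in SNEB) and blue (lower). A2M, LYVE1 and C3 lie near the diagonal, whereas FABP4, CD36 and CD163 lie below it, and MX1 lies low on the vertical axis.

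A further set of genes had reads in MNEB b and c alone. With at most 2 exonic reads in each SNEB library and in MNEB a and at least 5 in each of MNEB b and c, there were 123 genes, and 555 by whole gene reads. The same rule for MNEB a with b, or a with c, gave 2 and 0 genes by exonic reads and none by whole gene reads. In the libraries outside this comparison, the 555 genes had a median of 21 whole gene reads in one library of -4 wkpp, 13 in one library of SNEB at 16 wkpp and 8 in one of MNEB at 16 wkpp, and at most 2 in the other 6. Those 3 libraries belong to 3 different groups, so reads on these genes were not limited to MNEB at 1 wkpp.

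Of the genes in a list chosen from those the article names, 4 had most of their reads in MNEB b and c. STAB2, a scavenger receptor of lymphatic and sinusoidal endothelium, had 3, 10 and 0 whole gene reads in SNEB, 14 in MNEB a, and 249 and 219 in MNEB b and c. SNAP91, a clathrin adaptor of neurons, had 14, 6 and 11 in SNEB, 20 in MNEB a, and 347 and 319 in MNEB b and c. MAPK10, a stress kinase of neurons, had 51, 89 and 26, then 41, and 782 and 676, and DUSP27, a muscle phosphatase, had 1, 1 and 6, then 14, and 121 and 99. In exonic reads the highest value of the 4 genes in any library was 21, for MAPK10 in MNEB b. None of MAPK10, SNAP91, STAB2 and DUSP27 passed with all 6 libraries (adjusted p between 0.185 and 0.287 in the exonic fit). They reach the mean count of 10 through MNEB b and c only, so their p without MNEB a is not given.

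Of 17 tested genes in a list chosen from those the article names, none was called, though genes outside the list, such as PCOLCE2, also appear in its supplement. SFRP2, a secreted Wnt modulator, came nearest, with 789.9, 759 and 348 in SNEB and 157, 90.1 and 117 in MNEB (2.21 ± 0.43, adjusted p = 0.0138). POSTN, periostin of the matrix, had 219.9, 2943 and 291 in SNEB and 167, 123 and 72.7 in MNEB, and TF, transferrin, had 181, 2696 and 152 against 85.3, 68.8 and 82.2. For POSTN and TF, as for SCD, SNEB b was far above the other SNEB libraries. SERPINF1, the angiogenesis inhibitor PEDF, had 608, 1864 and 366 in SNEB and 136, 68.8 and 174 in MNEB (2.63 ± 0.69, adjusted p = 0.0331), and AMH, BMP7, ESR1, ITIH5, C1QTNF1 and BHLHE40 had adjusted p between 0.0323 and 0.706.

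**Figure D4:**
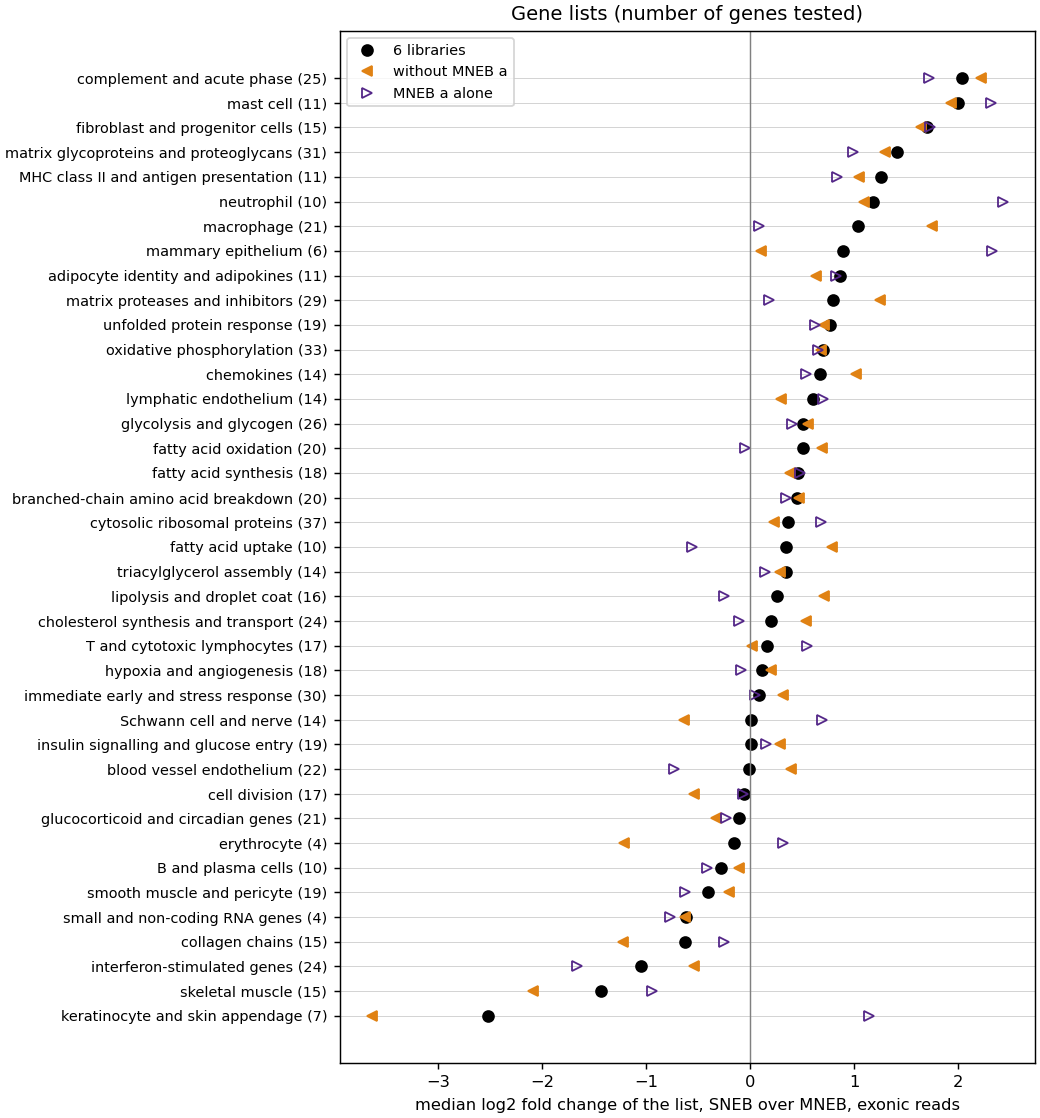
Median log2 fold change (SNEB over MNEB, exonic reads) of the tested genes of each list, with the 6 libraries, without MNEB a, and with MNEB a as the only MNEB library. Complement (2.04, 2.22 and 1.72) and fibroblast genes (1.70, 1.64 and 1.73) keep their place, whereas macrophage (1.04, 1.75 and 0.08) and fatty acid uptake genes (0.34, 0.79 and -0.56) move with the choice of MNEB libraries. The skeletal muscle, keratinocyte, lymphatic and Schwann cell lists include members that passed the filter only through MNEB b and c. The mast cell list includes TPSB2, which passed it only through SNEB.

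The same diets were compared at 16 wkpp in 6 other libraries, and since the study took biopsies of each cow at all times, the libraries of both weeks may share cows, which could not be matched here and which the tests do not use. Of the 60 genes higher at 1 wkpp, 59 had the same sign at 16 wkpp and 44 passed an adjusted p of 0.01 in the exonic fit at 16 wkpp. Of the 103 lower genes, all 103 had the same sign and 97 passed. Over all 10180 genes tested at both times, 79.8% had the same sign and 10.4% passed at 16 wkpp. A2M, for example, had 26499, 17702 and 33057 in SNEB and 4892, 3058 and 3025 in MNEB at 16 wkpp, on a scale common to the 12 libraries. The marks of the library titles are the other way round at 16 wkpp (m1 for SNEB, m2 for MNEB), while the low number of reads on genes and the high spike-in share stay with MNEB.

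LEP was the exception. On the same scale it had 384, 574 and 385 in SNEB and 52.2, 109 and 159.9 in MNEB at 1 wkpp, but 37.8, 7.78 and 11.7 in SNEB and 139.6, 32.9 and 44.2 in MNEB at 16 wkpp. The log2 fold change was 2.47 ± 0.40 at 1 wkpp and -2.24 ± 0.71 at 16 wkpp (adjusted p = 0.048 at 16 wkpp). The difference between the times, 4.72 on the log2 scale, did not pass after adjustment over all genes (adjusted p = 0.456 by the limma interaction term). TPPP, a tubulin-binding protein, had the smallest adjusted p of the exonic fit, with 416, 377 and 396 in SNEB against 319, 203 and 266 in MNEB at 1 wkpp and 221, 239.6 and 198 against 507, 421 and 511 at 16 wkpp (adjusted p = 0.233). No gene differed between the times in both fits (0 of 10249, 0%), with 510 genes at an unadjusted p below 0.05 in the exonic fit and 544 in the whole gene fit, and ADGRL3, KCTD10, LBH and HABP4 came next in the exonic fit, with adjusted p of 0.456 to 0.627.

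**Figure D5:**
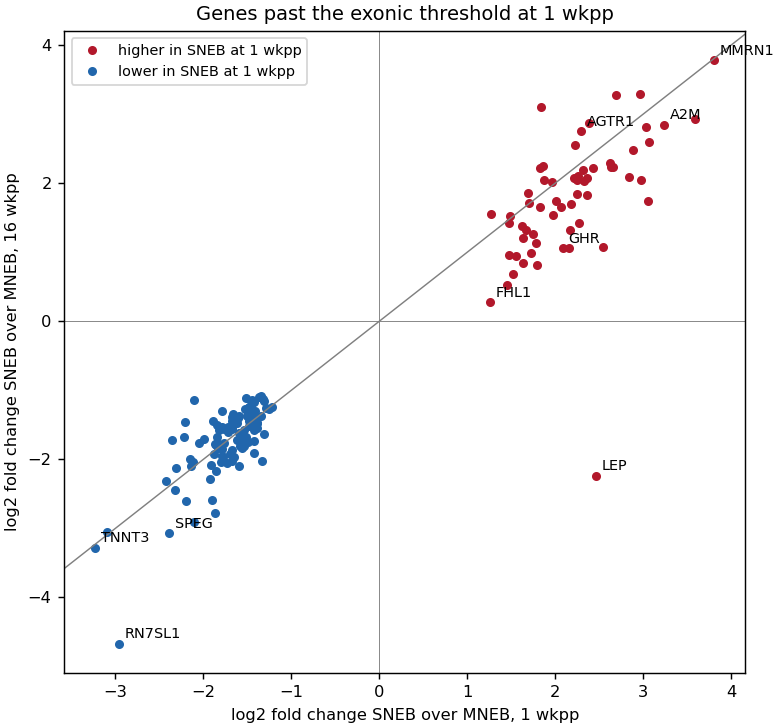
Log2 fold change of SNEB over MNEB at 1 wkpp (horizontal axis) and at 16 wkpp (vertical axis), exonic reads, for the 163 genes past the exonic threshold at 1 wkpp, with the line of equal values. All but LEP, at 2.47 and -2.24, have the same sign at both times.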

How the data were processed

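The authors made stranded libraries of ribosomal RNA depleted total RNA, read from one end, trimmed the reads with Cutadapt 1.3, aligned them with TopHat2 to bosTau8, counted reads per gene with HTSeq on exons or on entire genes, and compared 3 libraries with 3 in DESeq2. The 6 deposited tables give, per gene, the authors' mean normalized count over 6 libraries, printed to 15 digits, and columns of their own comparison (log2 fold change, its error, test score and p-values), which were not used. No column belonged to other samples (0 columns).

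Each library occurs in 2 or 3 tables with its own size factor, so the whole reads of the 15 libraries were solved from the means of the 6 tables by lattice reduction. Reads were recovered for 13895 of 13896 genes. As a check, 88 of 92 spike-ins were recovered, all 88 with the same 15 counts from exonic and whole gene columns, which were solved separately. Groups of libraries come from the tables that hold them, and the letters a, b and c are names only. The recovery was tested on simulated data.

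Because no deposited column holds counts, no count model was run. The reads were tested with limma 3.58.1 (voom, R 4.3.3) with the tables' size factors as scaling, on genes with a mean normalized count of at least 10 over the 6 libraries. A gene was to be called at an adjusted p below 0.01 in both fits with the same sign, and log2 fold changes are SNEB over MNEB from exonic reads. Normalized counts are reads divided by size factors, not by gene length, so levels of different genes are not compared. The p-values measure the spread between 3 cows a group. As a check for a library deposited more than once, no 2 libraries of a group agreed within sampling noise, since the chi-square of their exonic reads over genes was 20.6 to 123 per degree of freedom.

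Named genes were the 12 of largest change in each direction with a mean of at least 100 and no overlap, list members (the called ones, up to 4, or up to 2 of highest count), genes the article names, 8 common RT-qPCR reference genes, and 6 genes of smallest adjusted p for the difference between times. As no gene met the rule of the design, this was applied to the genes past 0.01 in the exonic fit, and a few further members of the lists were named after their values were seen. The members and the 41 lists were chosen with earlier results of these data known. Lists are described by counts and medians, with no set test. Alternatives were other scalings, filters, tests, libraries in the fit and libraries left out, and, added after the data were seen, intronic reads and fits with MNEB a alone or left out among all 15 libraries. Python 3.11.15, numpy 2.4.6, pandas 2.3.3 and matplotlib 3.10.9 were used.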

Additional observations from a re-analysis of the deposited data

Results flagged for a closer look

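The spike-in RNAs, which are no genes of the cow and were used above as an alternative scaling only, took a larger share of the reads in the MNEB libraries than in any SNEB library at 1 wkpp. Their share was 2.21% in MNEB a, 10.9% in MNEB b and 17.4% in MNEB c, against 0.354%, 0.339% and 0.884% in SNEB a, b and c. The amount of spike-in added to each sample is not given in the sources used here. Groups of 3 libraries are too small for the test of single values that stand apart.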

How the results depend on the processing

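The 0 genes past the threshold in both fits stayed at 0 with TMM factors, total reads, upper quartile, whole gene or intronic reads alone, no filter, a mean of at least 100, limma trend and MNEB a as the only MNEB library. It became 163 (60 higher, 103 lower) with exonic reads alone, 55 (30 and 25) at an adjusted p below 0.05, 799 (322 and 477) with quality weights, 312 (97 and 215) with all 15 libraries and 919 (299 and 620) with MNEB b and c among 14 libraries. Leaving out 1 library gave 0 to 462 genes (0 to 148 higher, 0 to 314 lower), and all but MNEB a gave 0.

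The 163 exonic calls became 107 (52 and 55) with TMM factors, 177 (67 and 110) with total reads, 182 (58 and 124) with upper quartile, 80 (39 and 41) without the filter, 395 (116 and 279) at a mean of at least 100, 362 (127 and 235) with limma trend, 1125 (367 and 758) with quality weights, 1415 (475 and 940) with all 15 libraries, 1676 (633 and 1043) at an adjusted p below 0.05, 15 (9 and 6) with MNEB a alone, 1667 (487 and 1180) with MNEB b and c among 14 libraries, and 0 (0 and 0) with whole gene or intronic reads alone. Leaving out 1 library gave 0 to 630 (0 to 167 higher, 0 to 463 lower). Why the count moved was not tested, apart from the fewer samples that a left-out library gives. A lone MNEB library is assumed to vary like the other groups.

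Scaling to the spike-in RNAs moved the median log2 fold change of all genes from 0.07 to 4.04. Then 8907 genes passed in both fits (8907 higher, 0 lower) and 9366 in the exonic fit (9366 and 0), and the shift common to all genes fixed a change of sign in 29 named genes, which says nothing about these genes in particular, to TNNT3 0.74, RN7SL1 1.02, GRIPAP1 1.55, SPEG 1.58, ARGLU1 1.63, HID1 1.66, CLASRP 1.65, MYBL2 1.69, DEPTOR 1.80, LENG8 1.83, ALS2CL 1.86, ABI3 1.86, ACACA 3.56, COL18A1 2.17, ROBO4 1.97, VWF 3.34, SMTN 1.87, TCAP 2.40, ATP2A1 0.88, STAB1 3.73, ZAP70 3.14, STAT2 3.27, EPCAM 4.12, EPAS1 3.76, PER2 2.27, SREBF2 2.54, RMRP 3.37, KCTD10 3.85 and HABP4 3.88. On intronic reads TNNT3 was at 0.57 ± 0.83 and ARGLU1 at 0.79 ± 0.41, and neither passed. The difference between 1 and 16 wkpp stayed at 0 genes in both fits under every alternative run. No paired analysis was possible because the recovered libraries carry no replicate numbers. The number of reads on genes limits the MNEB side, where MNEB c had 2207801 exonic reads on genes.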

Other observations

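All 10 tested neutrophil genes had a positive log2 fold change, with a median of 1.18 (1.09 without MNEB a, 2.43 with it alone), and 18 of 19 tested genes of the unfolded protein response, with a median of 0.77, but no member of either list was called. MHC class II and antigen presentation genes were positive in 10 of 11 tested, with a median of 1.26 (1.05 without MNEB a, 0.83 with it alone) and none called. Immediate early and stress response genes had a median of 0.08 over 30 tested (0.32 without MNEB a, 0.05 with it alone), again with none called. The median was -0.06 over 17 cell division genes (-0.54 and -0.07), 0.11 over 18 hypoxia and angiogenesis genes (0.20 and -0.09), and 0.16 over 17 genes of T and cytotoxic lymphocytes (0.02 and 0.55), with none called. SLC16A1, a lactate transporter, was the 1 called member of 26 tested genes of glycolysis and glycogen (0.573% of all genes were called higher), at 1.73 on the log2 scale.

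The next 6 lists had no called member. Medians, where given, are with the 6 libraries, then without MNEB a, then with MNEB a alone. They were 0.45, 0.47 and 0.34 for branched-chain amino acid breakdown (20 tested), 0.67, 1.02 and 0.54 for chemokines (14 tested), and -0.28, -0.11 and -0.42 for B and plasma cells (10 tested). They were 0.89, 0.10 and 2.32 for mammary epithelium (6 tested), and -0.16, -1.21 and 0.32 for erythrocytes (4 tested). No median is given for Schwann cells and nerve (14 tested), since SNAP91 passed the filter on the mean only through MNEB b and c. Of 25 keratinocyte and skin appendage genes, 7 were tested and none called, and no median is given, since members such as KRT14 passed the filter on the mean only through MNEB b and c. The list of small and non-coding RNA genes had RN7SL1 called lower among 4 tested (0.983% of all genes were called lower), with a median of -0.62.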
